A study of Mus musculus with 3 samples.

Results

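A set of 10 genes that encode transcription factors of hypothalamic neurons and their progenitors, Isl1, Sim1, Otp, Fezf1, Fezf2, Rax, Six3, Six6, Bsx and Hmx3, was followed through RNA sequencing libraries from mouse midbrain. They are 10 of the 49585 genes in the deposited tables, and each has 1 row there. The set was selected on measured values: it was put together by function, with the comparison of FGR and WT libraries already known, so the differences of its members between those groups are given as a description and no test is attached to them. All 10 had enough counts for the transcriptome-wide fit. In each FGR library, 6 of them (Fezf1, Fezf2, Rax, Six6, Bsx and Hmx3) had fewer than 10 counts. All of these but Hmx3 had enough counts for the fit in the WT library alone.

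The libraries were made from total RNA of brain tissue whose source is labelled mid-brain, from C57BL/6 mice at postnatal day 3. Of the libraries, 1 is of wild type genotype (WT) and 2 are of a genotype labelled FGR, a name the labels do not spell out. No treatment is recorded, and the labels do not say whether a library holds 1 animal or a pool. Total counts were 52874311 for WT, and 58444481 and 46240262 for FGR replicates 1 and 2. With a single WT library, how its tissue was cut or prepared cannot be told apart from its genotype. In bulk tissue, fewer cells of a type and less RNA per cell cannot be told apart either.

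As background, the hypothalamus is the ventral part of the diencephalon and lies directly in front of the midbrain. Its territory is set up in the embryo by homeobox genes of the anterior neural plate such as Six3, Six6 and Rax, and by the zinc finger repressors Fezf1 and Fezf2 of the rostral forebrain. Later factors assign neuron types: Otp and Sim1 act in neurons that make oxytocin, vasopressin, thyrotropin-releasing hormone and somatostatin, and Isl1, Bsx and Hmx3 act in the arcuate nucleus and its neighbours, where feeding and growth hormone release are controlled. Several of these genes are also used elsewhere. Isl1 marks cranial motor neurons, Six3 is found in the striatum and in some midbrain GABA neurons, Otp in the hindbrain and spinal cord, and Fezf2 in deep-layer cortical neurons.

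The promoters below are those of the members at the opposite ends of the results. Fezf1 and Six6 had 0 counts in both FGR libraries, and Otp and Six3 were at slightly higher levels there than in WT. Each line gives the 250 bases before the transcription start, from RefSeq, read 5′ to 3′ on the gene's strand. Capitals mark CCAAT boxes, the letters CCAAT on either strand.

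Fezf1 (GRCm38.p6, chr6:23248265-23248514, minus strand): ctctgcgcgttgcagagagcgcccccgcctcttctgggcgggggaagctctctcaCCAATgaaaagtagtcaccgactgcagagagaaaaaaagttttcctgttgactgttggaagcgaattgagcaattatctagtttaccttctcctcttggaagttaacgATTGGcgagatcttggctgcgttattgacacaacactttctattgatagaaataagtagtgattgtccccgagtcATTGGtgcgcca

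Six6 (GRCm38.p6, chr12:72939632-72939881, plus strand): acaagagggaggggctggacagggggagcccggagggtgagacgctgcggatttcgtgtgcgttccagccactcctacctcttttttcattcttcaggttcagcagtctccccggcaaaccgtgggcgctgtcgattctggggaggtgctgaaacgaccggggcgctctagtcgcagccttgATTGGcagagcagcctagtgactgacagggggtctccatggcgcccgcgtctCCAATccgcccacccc

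Otp (GRCm38.p6, chr13:94875386-94875635, plus strand): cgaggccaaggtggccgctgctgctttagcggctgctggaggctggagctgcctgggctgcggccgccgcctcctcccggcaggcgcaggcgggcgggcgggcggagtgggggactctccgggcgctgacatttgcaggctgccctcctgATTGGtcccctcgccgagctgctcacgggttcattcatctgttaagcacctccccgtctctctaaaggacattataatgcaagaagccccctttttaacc

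Six3 (GRCm38.p6, chr17:85620584-85620833, plus strand): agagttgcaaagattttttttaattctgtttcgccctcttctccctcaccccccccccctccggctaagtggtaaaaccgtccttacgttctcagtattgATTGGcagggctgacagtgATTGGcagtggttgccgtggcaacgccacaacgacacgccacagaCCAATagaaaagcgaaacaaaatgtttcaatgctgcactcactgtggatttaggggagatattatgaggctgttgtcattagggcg

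Promoter windows were found for 9 of the 10 members. A CCAAT box stood in 6 of these 9, against 33.8% of 32851 mouse promoter windows of the same length. There were 3 matches in Fezf1, 2 in Six6, 1 in Otp and 3 in Six3, so members at 0 counts in FGR and members above WT both had it. The GC box GGGCGG was found in 6 of the 9 windows (32.7% of all windows), the E-box CANNTG in 4 (66.2%), TATAAA in 1 (12.4%) and the homeodomain core TAATTA in 0 (4.84%). All were searched on both strands. A CCAAT box followed by TG also holds an E-box. GC content was 47.6% in Fezf1, 62.8% in Six6, 65.2% in Otp and 48.8% in Six3, around the 52.4% median of all windows. Over the 9 windows it ran from 45.6% in Sim1 to 76.8% in Hmx3. Their counts of the pair CG ran from 10 in Six3 to 33 in Isl1, against a median of 6 in all windows. The comparison windows were not matched for this, and its part in the motif shares was not tested.

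**Figure D1:**
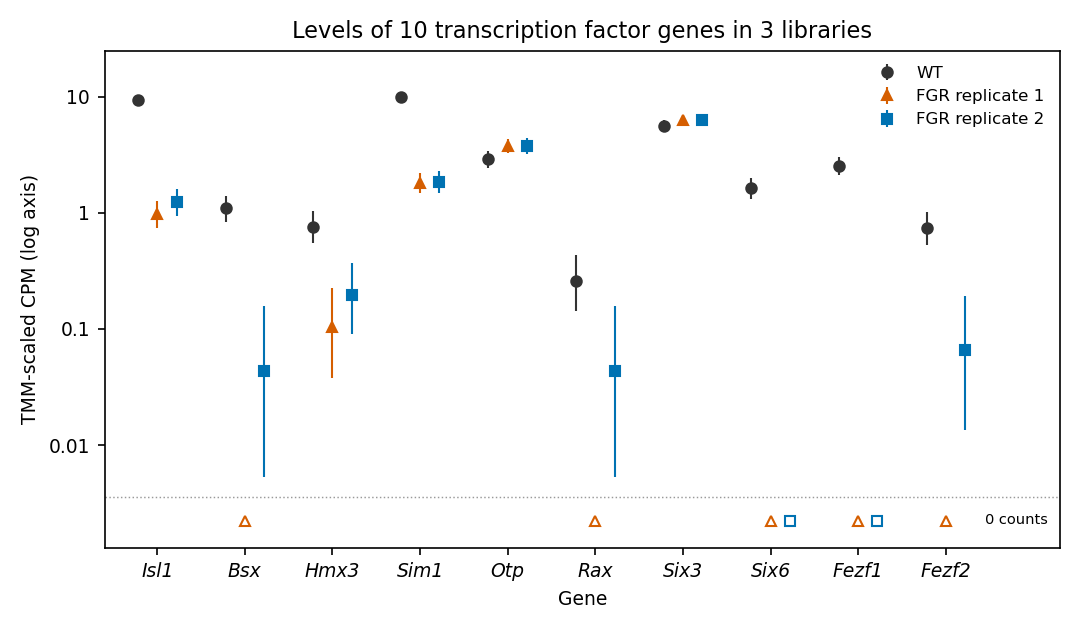
TMM-scaled CPM (log axis) of the 10 genes in the WT library and both FGR libraries, with exact 95% Poisson intervals that cover counting error only. Open symbols under the dotted line are libraries at 0 counts; Otp and Six3 are the only genes whose FGR points lie above the WT point.

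Levels are given as CPM, a gene's count per 1000000 counts of its library after TMM scaling. In WT the members summed to 35.1 CPM, and in FGR to 12.9 and 13.6 CPM. At least 2-fold lower than WT in both FGR libraries were 8 of the 10 members (1.79% of the 24536 genes with at least 10 WT counts were so), and 2 of 10, Otp and Six3, were above WT in both. Since the set was assembled with this contrast known, nothing is read from that share. Over the 10 genes the median log2 ratio of FGR to WT was -3.43, with genes at 0 set to a floor of 3 counts over the FGR libraries. Without FGR replicate 1 it was -2.75, between Isl1 at -2.93 and Rax at -2.57, neither of them set to the floor. Without FGR replicate 2 it was -3.08, between Isl1 at -3.27 and Hmx3 at -2.88, with Rax set to the floor.

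Among the arcuate factors, Isl1 (ENSMUSG00000042258.13), a LIM homeobox gene, had 511 counts in WT and 57 in each FGR library. In CPM the WT level was 9.49 against 0.983 and 1.25, a pooled level 8.64-fold lower (95% interval 7.04 to 10.7, from an exact binomial interval of the counts, which covers counting error only). Both FGR libraries were far below WT.

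Bsx (ENSMUSG00000054360.4), a homeobox gene that acts on the appetite peptides Npy and Agrp, had 59 WT counts, none in the first FGR library and 2 in the second. The FGR to WT ratio was 0.0176 (95% interval 0.00208 to 0.0664). Hmx3 (ENSMUSG00000040148.5), a homeobox gene needed together with Hmx2 for growth hormone-releasing hormone neurons, had 41 counts in WT and 6 and 9 in FGR, or 0.762 CPM against 0.103 and 0.197 CPM, 5.27-fold lower (95% interval 2.85 to 10.2). For each of these 3 genes the counting interval of either FGR library lay wholly below that of WT. Hmx3 lies within the annotated span of Fgfr2 on the other strand, and Fgfr2 had 1389, 1236 and 1052 counts.

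The neuroendocrine factors Sim1 and Otp went apart. Sim1 (ENSMUSG00000019913.3), a bHLH-PAS gene required for neurons of the paraventricular and supraoptic nuclei, had 541 counts in WT and 105 and 85 in FGR. Its CPM was 10.1 in WT against 1.81 and 1.86, 5.49-fold lower (95% interval 4.64 to 6.51).

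Otp (ENSMUSG00000021685.11), the homeobox gene required for many of the same neurons, had 156 counts in WT and 219 and 173 in FGR. Against 2.90 CPM in WT stood 3.78 ± 0.00639 CPM in FGR (SD over 2 libraries), 1.30 times the WT level (95% interval 1.08 to 1.58). Both FGR libraries were above WT, although the counting intervals of the levels overlapped that of WT. Other genes with 100 to 1000 counts over the 3 libraries lay a median of 1.21-fold from WT in FGR replicate 1 (7597 genes) and 1.20-fold in FGR replicate 2 (7595 genes), and 95% of them lay within 1.89-fold in the latter. Otp lay within this range and Sim1 outside it. Otp had no overlapping gene in the annotation.

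Six6 and Six3 also went apart. Six6 (ENSMUSG00000021099.6), a homeobox gene of the hypothalamus, pituitary and retina, had 88 counts in WT and 0 in both FGR libraries, at least 56.5-fold lower against a floor of 3 counts over the FGR libraries. The gene 4930447C04Rik, which overlaps Six6 on the other strand, had 458 counts in WT and 518 and 412 in FGR, so Six6 stayed at 0 where its neighbour was counted.

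Six3 (ENSMUSG00000038805.10), the close relative of Six6 that acts first in the anterior forebrain, had 302 counts in WT and 364 and 291 in FGR. From 5.61 CPM in WT to 6.32 ± 0.0641 CPM in FGR (SD over 2 libraries) the ratio was 1.13 (95% interval 0.981 to 1.29). Six3 is overlapped by the transcript Six3os1 on the other strand, which had 944 counts in WT and 1071 and 717 in FGR (17.5 and 17.1 ± 1.96 CPM). By edgeR, neither overlapping transcript was called (adjusted p = 0.923 for Six3os1 and 0.841 for 4930447C04Rik). Since the use of strand in counting is not given in the sources used here, reads of Six3 and Six3os1 cannot be told apart where they overlap.

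Rax (ENSMUSG00000024518.3), a homeobox gene of hypothalamic progenitors that stays on in tanycytes, the glia that line the floor of the third ventricle, was the least abundant member. WT had 14 counts and the FGR libraries 0 and 2, so the ratio of 0.0741 came with a wide 95% interval, from 0.00818 to 0.323. Its antisense transcript Raxos1 had 3, 0 and 2 counts, as many as Rax itself in the second FGR library.

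The zinc finger genes Fezf1 and Fezf2, which repress caudal fates in the rostral forebrain, were both lower. Fezf1 (ENSMUSG00000029697.6) had 137 counts in WT and 0 in both FGR libraries, at least 88.0-fold lower. A count of 3 would be 0.0517 CPM in FGR replicate 1 and 0.0656 CPM in FGR replicate 2, the depth limit for such genes, against 2.55 CPM in WT. Fezf2 (ENSMUSG00000021743.5) had 40 WT counts, and the FGR libraries had 0 and 3, which puts the ratio at 0.0389 (95% interval 0.00770 to 0.122). Neither gene had an overlapping gene in the annotation.

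**Figure D2:**
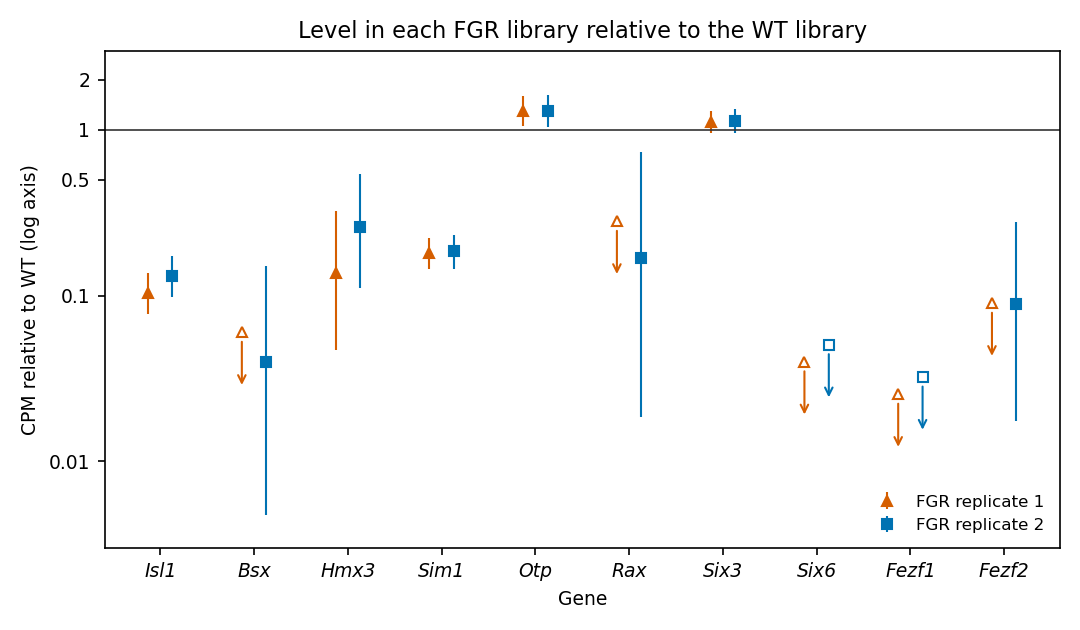
Level in each FGR library divided by the level in WT (log axis), with exact 95% binomial intervals of the counts. Open symbols with arrows are the upper 95% bounds for libraries at 0 counts; the filled points of the 8 lower genes lie at 0.258 or less, and Otp and Six3 lie at 1.12 to 1.31.

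For the 5 members with counts in both FGR libraries these were compared with each other. The level in replicate 2 relative to replicate 1 was 1.00 for Otp (95% interval 0.816 to 1.23), 1.01 for Six3 (0.867 to 1.19), 1.03 for Sim1 (0.763 to 1.38), 1.27 for Isl1 (0.863 to 1.86) and 1.90 for Hmx3 (0.605 to 6.50). For comparison, 7595 other genes with 100 to 1000 counts lay a median of 1.16-fold apart between the FGR libraries, and 95% of them within 1.69-fold. Isl1, Sim1, Otp and Six3 lay within that range and Hmx3, with 6 and 9 counts, outside it. The interval of Hmx3 is too wide to show whether the libraries differed. Where a member had only 1 to 3 counts in FGR (Fezf2, Rax and Bsx), all of them were in replicate 2, although that library was the shallower one.

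**Figure D3:**
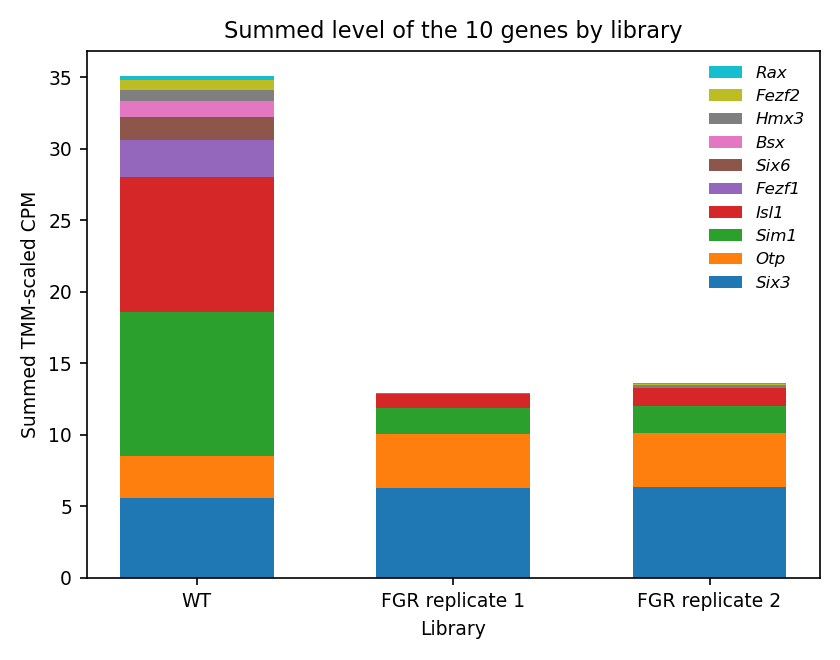
Summed TMM-scaled CPM of the 10 genes in each library, stacked by gene from Six3 at the bottom to Rax at the top. The WT bar reaches 35.1 CPM and the FGR bars 12.9 and 13.6 CPM, with Six3 and Otp making up most of the FGR bars.

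Per length of transcript, the order of the members differed between the groups. In WT, as CPM per kilobase, Isl1 led at 2.40, followed by Sim1 at 1.37. Fezf1 at 1.06, Six3 at 1.03 and Otp at 1.01 had overlapping counting intervals. So did the next 4, Hmx3 at 0.523, Six6 at 0.408, Bsx at 0.370 and Fezf2 at 0.323. Rax was last at 0.156, with an interval that reached into that of Fezf2. In FGR, Otp led at 1.31 ± 0.00222 (SD, n = 2) and Six3 followed at 1.16 ± 0.0118, with overlapping counting intervals in each library. Isl1 at 0.282 ± 0.0472 and Sim1 at 0.249 ± 0.00474 had overlapping intervals in each library, Hmx3 was at 0.103 ± 0.0454, and the other 5 were at 0.0142 or below. Sim1 thus stood above Otp in WT and below it in both FGR libraries. Otp and Six3 gave 24.2% of the members' counts in WT and 77.6% and 74.6% in FGR. Without them the members summed to 26.6 CPM in WT and to 2.90 and 3.46 CPM in FGR.

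The genes around these factors were then taken from lists put together by function, without the members, and tested. As with the members, earlier results of these data were known when the lists were chosen. The counts of calls in each list are therefore given as a description. By edgeR's quasi-likelihood test with Benjamini-Hochberg adjustment over 25561 genes, 2.59% of all genes fell and 1.66% rose at an adjusted p under 0.05, with a median log2 fold change of 0.01. Scaling by library totals instead of TMM gave a different split: 1027 genes fell and 332 rose instead of 663 and 424. Only the pair of FGR libraries gives a spread, with 1 residual degree of freedom, and WT is taken to share it. A gene was tested if 1 library had enough counts, so genes near 0 in FGR could enter the fit through WT alone.

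Of 20 other transcription factors of the hypothalamus, 18 were tested, 8 fell and 2 rose, with a median log2 fold change of -0.82. Nkx2-1, which specifies the ventral hypothalamus, fell from 263 counts to 4 and 2 (edgeR adjusted p = 2.66e-07). Its relative Nkx2-4 had 262 counts in WT and 0 in FGR, at least 168.3-fold lower (adjusted p = 3.12e-07). Nr5a1, the defining factor of the ventromedial nucleus, named after its values were seen, had 40 counts in WT and 0 and 2 in FGR (adjusted p = 0.00752). Nkx2-1, Nkx2-4 and Nr5a1 had enough counts for the fit in the WT library alone, so their adjusted p-values are given as a description. The 2 that rose are widely used in neurons: Pou3f2, a POU factor downstream of Sim1 and Otp, rose from 66.8 to 92.3 ± 11.0 CPM (adjusted p = 0.00817), and Nhlh2 from 19.4 to 26.3 ± 0.276 CPM (adjusted p = 0.0356). DESeq2 called 2 of the 8 falls and gave no adjusted p for the other 6. Of the 2 rises it called Pou3f2 but not Nhlh2 (adjusted p = 0.154).

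The closest relatives of the members were then read in the same fit. Of 8 paralogs of the members, 7 were tested and 0 were called in either direction by edgeR (2 lower and 0 higher at an unadjusted p under 0.05, and 0 called by DESeq2 or limma-voom). With no low-count filter 1 fell, Six4, named after its values were seen, which had 64 counts in WT and 30 and 26 in FGR (adjusted p = 0.104 with the filter and 0.0321 without it). Hmx2, the neighbour and partner of Hmx3, had 37 counts in WT and 19 and 9 in FGR (adjusted p = 0.183). Six5, the most abundant per length, had 180 counts in WT and 220 and 231 in FGR (adjusted p = 0.334). Of 15 cofactors that these factors bind, 0 fell and 2 rose by edgeR (0 lower and 5 higher at an unadjusted p under 0.05, and 0 called by DESeq2). Ldb1, which joins LIM homeobox proteins such as Isl1 into complexes, rose from 57.3 to 72.5 ± 2.08 CPM (adjusted p = 0.00890) and Dach1, a partner of proteins of the Six3 family, from 14.2 to 19.9 ± 0.268 CPM (adjusted p = 0.0434). Arnt2, the dimer partner of Sim1, had a WT level of 248.6 CPM against 290.6 ± 11.1 CPM (adjusted p = 0.172), and Aes, a Groucho-type cofactor and the most abundant of the list per length, 204.9 against 197.4 ± 3.03 CPM (adjusted p = 0.774).

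Of 19 peptide genes made by hypothalamic neurons, 17 were tested, 6 fell and 1 rose, with a median log2 fold change of -0.68. Pmch, the melanin-concentrating hormone gene, fell from 619 counts to 25 and 19, 27.1-fold in CPM (adjusted p = 2.66e-08). Peptides of the Sim1 and Otp lineage did not move as one. Avp fell 19.8-fold in CPM, from 154 counts to 8 and 7 (adjusted p = 1.45e-05), and Oxt, named after its values were seen, from 26 counts to 0 in both, at least 16.7-fold (adjusted p = 0.0117). Avp and Oxt had enough counts for the fit in the WT library alone, so their adjusted p-values are given as a description. The same holds for Hcrt, another of the 6 falls, named after its values were seen. It had 40 counts in WT and 6 and 2 in FGR (adjusted p = 0.0156). Trh, for thyrotropin-releasing hormone, fell from 3.73 to 1.29 ± 0.220 CPM (adjusted p = 0.00230). Sst, for somatostatin, which many other neurons make, rose from 35.9 to 48.2 ± 2.83 CPM (adjusted p = 0.00831). Crh, also in the list and named after its values were seen, was not called. It had 48 counts in WT and 85 and 48 in FGR, a ratio of 1.44 with a counting interval of 1.03 to 2.04 (adjusted p = 0.477).

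Peptides made in the arcuate nucleus, named after their values were seen, differed among themselves. Gal, for galanin, which is made in several other hypothalamic regions too, fell from 82 counts to 34 and 27 (adjusted p = 0.0338). The other 7 named here were not called. Tac2, for neurokinin B, had 19 counts in WT and 1 and 2 in FGR, a ratio of 0.0819 with a counting interval of 0.0155 to 0.278 (adjusted p = 0.0719), and Kiss1, for kisspeptin, 11, 4 and 0 (adjusted p = 0.330). Tac2 and Kiss1 had enough counts for the fit in the WT library alone. Cartpt, for an appetite peptide, had 311, 234 and 179 counts (adjusted p = 0.0893). With no low-count filter Tac2 (adjusted p = 0.0361) and Cartpt (adjusted p = 0.0338) were called, which made 8 falls in the list. Pomc had 87 counts in WT and 62 and 69 in FGR (adjusted p = 0.614). Npy, which cortical and brainstem neurons make as well, had 426, 429 and 322 counts (adjusted p = 0.703), Ghrh 21, 13 and 12 (adjusted p = 0.634) and Agrp 136, 135 and 102 (adjusted p = 0.786). Agrp is overlapped by several annotated genes, among them Ctcf, with 2932, 3725 and 2942 counts, so its reads cannot be assigned with certainty. Of the 6 falls among the peptides, DESeq2 called Pmch, did not call Trh (adjusted p = 0.0639) and gave no adjusted p for 4. It did not call Sst (adjusted p = 0.0620).

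Of 10 receptors through which the hypothalamus reads hormones and peptides, 2 fell and 0 rose by edgeR (4 lower and 0 higher at an unadjusted p under 0.05, and 1 and 0 by DESeq2). Lepr, the leptin receptor gene, fell from 604 counts to 255 and 314 (adjusted p = 0.0117), and Npy1r fell from 7.28 to 4.77 ± 0.428 CPM (adjusted p = 0.0492), a call that limma-voom (adjusted p = 0.0559) and DESeq2 (adjusted p = 0.449) did not make. Pgr, the progesterone receptor gene and the most abundant per length, had 1118, 1350 and 940 counts (adjusted p = 0.795). Of 10 tanycyte genes, 9 were lower in both FGR libraries but only 1 was called as falling, Dio2, the thyroid hormone-activating deiodinase gene, from 3.55 to 1.41 ± 0.264 CPM (adjusted p = 0.00561). Lhx2, also used in many other neurons and progenitors, rose from 14.2 to 21.7 ± 3.54 CPM (adjusted p = 0.0298). DESeq2 called neither (adjusted p = 0.147 for Dio2 and 0.0779 for Lhx2).

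**Figure D4:**
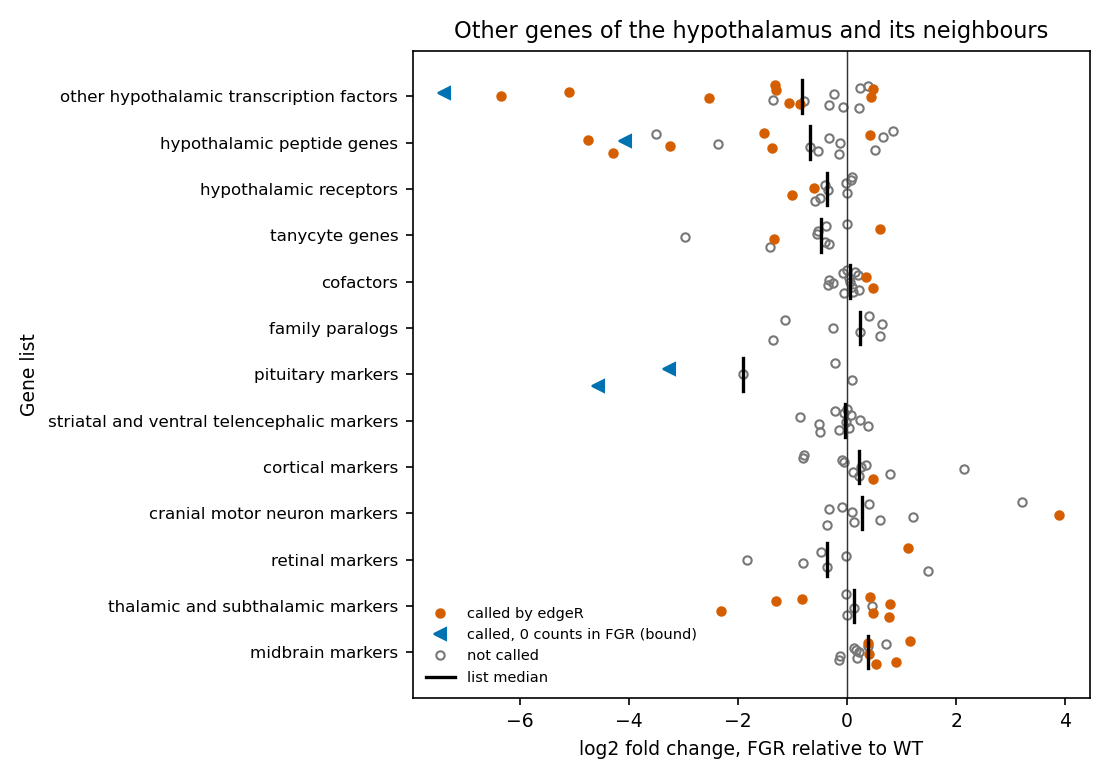
log2 fold change of FGR relative to WT for each tested gene of 13 lists, without the 10 members. Filled circles were called by edgeR, triangles are called genes at 0 counts in FGR drawn at their bound, and open circles were not called. Black bars are list medians, from -1.91 for the pituitary to 0.38 for the midbrain. The pituitary median rests on 5 tested genes, of which Cga, Tbx19 and Lhx3 had enough counts for the fit in WT alone.

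Markers of the labelled tissue and of its neighbours were read in the same libraries. The midbrain markers En1, En2, Otx2, Pax7 and others were present throughout. Their summed level over 14 genes was 291.5 CPM in WT and 413.5 and 355.0 CPM in FGR, with 5 rising and 0 falling by edgeR (0 lower at an unadjusted p under 0.05 and 0 falling by DESeq2, which called 2 of the rises). En2 rose from 20.9 to 38.7 ± 1.92 CPM (adjusted p = 1.31e-04) and Otx2, which sets the rear border of the midbrain, from 33.9 to 44.9 ± 2.16 CPM (adjusted p = 0.0120). Tfap2d rose from 13.7 to 30.4 ± 2.64 CPM (adjusted p = 1.02e-04), and Tfap2b, the most abundant per length, from 92.2 to 119.7 ± 16.9 CPM (adjusted p = 0.0415). The 2 rises that DESeq2 called were En2 and Tfap2d. It did not call Otx2 (adjusted p = 0.0945) or Tfap2b (adjusted p = 0.716). Of 11 thalamic and subthalamic markers 3 fell and 4 rose, and DESeq2 made the same 7 calls. Gbx2 of the thalamus fell from 220 counts to 42 and 43 (adjusted p = 1.27e-04) and Prox1 from 28.8 to 16.2 ± 0.822 CPM (adjusted p = 0.00115). Lhx9 rose from 105.1 to 180.9 ± 12.8 CPM (adjusted p = 1.02e-04), Barhl1 from 15.1 to 25.6 ± 0.0289 CPM (adjusted p = 0.00224) and Foxp2 from 118 to 164 ± 4.30 CPM (adjusted p = 0.00213). The part of these regional differences in the levels of the 10 genes was not tested.

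Other places where the members are used gave mixed values. Of 12 pituitary genes, which matter for Six3, Six6 and Isl1, 5 were tested and 2 fell to 0 counts, Cga from 37 (adjusted p = 0.00415) and Tbx19 from 15 (adjusted p = 0.0488). Cga and Tbx19 had enough counts for the fit in the WT library alone, so their adjusted p-values are given as a description. DESeq2 gave no adjusted p for either, and Lhb, the most abundant per length, had 80, 67 and 93 counts. The 12 summed to 4.05 CPM in WT and 2.45 and 3.30 CPM in FGR, and Prl was at 0 counts in all 3 libraries and Gh at 0, 1 and 0. Of 9 retinal genes 7 were tested and 1 rose by edgeR, which DESeq2 did not call, and 0 fell (1 lower at an unadjusted p under 0.05, 0 falling by DESeq2). The 9 summed to 5.33 CPM in WT against 6.00 and 6.10 CPM, and Rpe65 was at 0 counts in all 3 libraries.

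Cranial motor neuron markers, which matter for Isl1, summed to 46.4 CPM in WT and 49.4 and 44.5 CPM in FGR. By edgeR 1 of 10 tested rose and 0 fell (1 lower at an unadjusted p under 0.05, 0 falling by DESeq2). Chat, the acetylcholine synthesis gene, named after its values were seen, had 37 counts in WT and 42 and 36 in FGR. Ret, the most abundant per length, was at 26.8 CPM against 21.3 ± 0.182 CPM (adjusted p = 0.107).

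Of 12 tested striatal and ventral telencephalic markers 0 were called by edgeR (1 lower and 1 higher at an unadjusted p under 0.05, 0 called by DESeq2 or limma-voom, 1 rising with DESeq2 size factors, 1 falling with library totals and 1 each way with no filter). Penk, the most abundant per length, had 719, 904 and 732 counts (adjusted p = 0.349). Their sum was 222.4 CPM in WT and 225.5 and 226.1 CPM in FGR. Of 11 cortical markers, which matter for Fezf2, 1 rose, Bcl11b, from 69.3 to 96.8 ± 13.2 CPM (adjusted p = 0.00967), and 0 fell (0 lower at an unadjusted p under 0.05 and 0 falling by DESeq2).

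Genes with a pattern near the members' median were sought among the 14487 genes with a mean of at least 1 CPM, predicted genes left out. Fezf1, Fezf2, Rax, Six6, Bsx and Hmx3 lie below that mean themselves, so genes at their level were not searched. Likeness was the Euclidean distance between a gene's 2 log2 ratios to WT, 1 for each FGR library, and the members' median ratios of -3.10 and -2.65 (prior count 2). It therefore rests on 3 libraries. The nearest were Gbx2 at a distance of 0.875, Fzd5, a Wnt receptor gene, at 0.934, Parpbp at 1.35, Avp at 1.58 and Hdc, the histamine synthesis enzyme gene, at 1.65. Hdc had 328 counts in WT and 96 and 93 in FGR. Parpbp, with 563, 170 and 103 counts, overlaps Pmch on the other strand, and without strand its reads cannot be told apart from those of Pmch.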

How the data were processed

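Total RNA of midbrain was sequenced in 3 libraries, per the labels. The submitters' processing notes name HISAT2. Which version of it, build, annotation, counter and strand setting were used is not given in the sources used here. The authors deposited a raw read count, a gene length and an RPKM value per gene. The deposited RPKM matched the value computed from count, length and library total within 0.1% for all genes, and the counts were used instead.

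Counts were scaled by TMM. Tests were edgeR's quasi-likelihood F test (edgeR 4.0.16 under R 4.3.3), two-sided, on genes kept by filterByExpr at a minimum count of 10. The scripts were tested on simulated data. Nothing in the labels ties either FGR library to an animal of its own, and p-values then measure only the spread between these samples, which may be technical. Members received no test. The members, gene lists and tests were chosen with earlier results of these data known. The text names all members, the 3 smallest p-values in each direction and the most abundant gene per length of each list, and the 5 nearest patterns; a few of these are not reported here. Overlaps were read from GENCODE M21, which holds 49326 of the 49585 identifiers regardless of version, and promoters from RefSeq (GRCm38.p6). Alternatives were DESeq2 1.42.0, limma-voom (limma 3.58.1), other scalings, other filters and removal of each FGR library.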

Additional observations from a re-analysis of the deposited data

How the results depend on the processing

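The number of called genes, 1087 by edgeR, was 2057 with no low-count filter, 655 with a minimum count of 20 and 357 by DESeq2. It stayed within 1.5 times with DESeq2 size factors (1209), library totals (1359) and limma-voom (1085). Of the calls 39.0% were rises, and 24.4% with library totals. The members' median log2 ratio of -3.43 ranged from -3.08 to -2.75 when either FGR library was left out. The floor of 3 counts then stands over fewer reads, but the genes at these medians were not set to it. Medians near 0 changed sign. That of the paralogs, 0.24, ranged from -0.11 to 0.013 without an FGR library. That of the overlapping transcripts of Six3 and Six6, 0.020, was -0.020 with library totals and ranged from -0.039 to 0.072 without an FGR library. That of the striatal markers, -0.034, ranged from -0.076 to 0.0059. The cause was not tested. Removing an FGR library leaves 1 a side, so it gave values and no calls. No paired analysis was possible because WT has 1 library. For genes at 0 in FGR, depth limits the fold to the bound of 3 counts.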
